A study of Bos taurus with 138 samples.

Results

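Kinetochore and spindle checkpoint mRNAs were followed from the germinal vesicle (GV) oocyte to the blastocyst, as 45 genes out of the 16706 gene symbols in the table. The genes came from a list of symbols by their known role, drawn up with earlier results of these data known, and all 45 were present in the table. They were grouped by role into 13 inner kinetochore proteins (CENPA, CENPC and the centromere-associated network), 9 genes of the KMN network, 3 of the SKA complex, 6 of the corona and its partners, 6 of the spindle assembly checkpoint, 6 Aurora kinases and passenger proteins, and 2 shugoshins.

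The kinetochore is the protein assembly that joins centromeric chromatin to spindle microtubules. Kinetochores without microtubules activate the spindle assembly checkpoint, whose products hold back the anaphase-promoting complex until every chromosome is attached, while the chromosomal passenger complex destabilises wrong attachments and shugoshins protect cohesin at centromeres. A fully grown oocyte is transcriptionally silent from the GV stage until genome activation in the embryo, so both meiotic divisions and the first cleavages draw on stored mRNA, and loading of stored mRNA onto ribosomes is one way in which its use is controlled.

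Bovine (Bos taurus) GV oocytes and in vitro matured metaphase II (MII) oocytes, and 2-cell, 8-cell, morula and blastocyst embryos made by in vitro fertilization with semen of a Holstein bull, were pooled for each library. The oocytes came from slaughterhouse ovaries, so a pool mixed many females of unstated age. By the study's methods, cycloheximide, which holds ribosomes on mRNA, was added to the culture of oocytes and embryos before collection. The buffer in which all stages were lysed for fractionation, and the gradients, held it as well. Each stage had 2 sucrose gradients (A and B, biological duplicates by the design text) cut into 10 fractions, F1 to F10, in which RNA with more ribosomes sediments further, and 3 whole transcriptomes (A, B and C, biological triplicates) from oocytes or embryos of the same batch. Following the study, F1 and F2 are called free RNA, F3 to F5 monosomes, and F8 to F10 polysomes.

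The total of expected counts lay between 1229382 and 17342859 in the 120 fraction libraries and between 3269386 and 11812567 in the 18 transcriptomes. Levels are given as CPM, the count of a gene relative to the total of its library, scaled by TMM factors, and a polysome pool is the sum of the 3 heaviest fractions of a gradient (F8 to F10), so n = 2 for polysomes and n = 3 for transcriptomes. Every fraction library was amplified and scaled to its own total, so a profile gives the share of a gene within each fraction, not the distribution of its molecules over the gradient. Likewise, fewer copies per oocyte or embryo and a smaller share of a larger total cannot be told apart in such pooled samples. The same holds for more copies and a larger share. The library kit captured mRNA before amplifying it, and whether capture changed between stages was not tested. A rise or fall in CPM is therefore not by itself a gain or loss of mRNA. Oocyte markers (8 genes) summed to between 18800 and 22300 CPM in GV transcriptomes and between 35.7 and 163 CPM in blastocysts, where 6 trophectoderm markers summed to between 5180 and 6030 CPM. Of the 8 cumulus and granulosa markers, FOXL2 was at 0 in all GV and MII transcriptomes and FSHR had means of 0.0848 CPM in GV and 0.191 CPM in MII, but HAS2 and TNFAIP6, genes of the expanding cumulus, had means of 33.1 and 0.0506 CPM in GV and 180 and 124 CPM in MII, and the summed level of the 8 ranged from 32 to 43 CPM in GV and from 274 to 359 CPM in MII. Their part in the maturation results of the transcriptome was not tested.

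Whole-transcriptome levels of the kinetochore genes were highest around MII and lowest in blastocysts. The median over the 45 genes was 155 CPM in GV, 200 in MII, 143 in 2-cell, 116 in 8-cell, 104 in morula and 61 in blastocyst transcriptomes. Without TMM factors the 2-cell median was slightly above the MII median (values in the last section), so the order of MII and 2-cell depends on the scaling. The stage of the highest mean level was MII for 22 genes, GV for 9, 2-cell and 8-cell for 4 each, and morula and blastocyst for 3 each. In the polysome pools, by contrast, the median was 68.6 CPM in GV and 47.3 in MII, 32.3 in 2-cell, 40.9 in 8-cell, 27.1 in morula and 25.2 CPM in blastocyst, and the highest mean fell at GV for 19 genes and at MII for 7. The share of all genes with their highest level at each stage was not counted, so the counts by stage are a description only. The heat map of levels by stage sets both measures side by side.

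**Figure D1:**
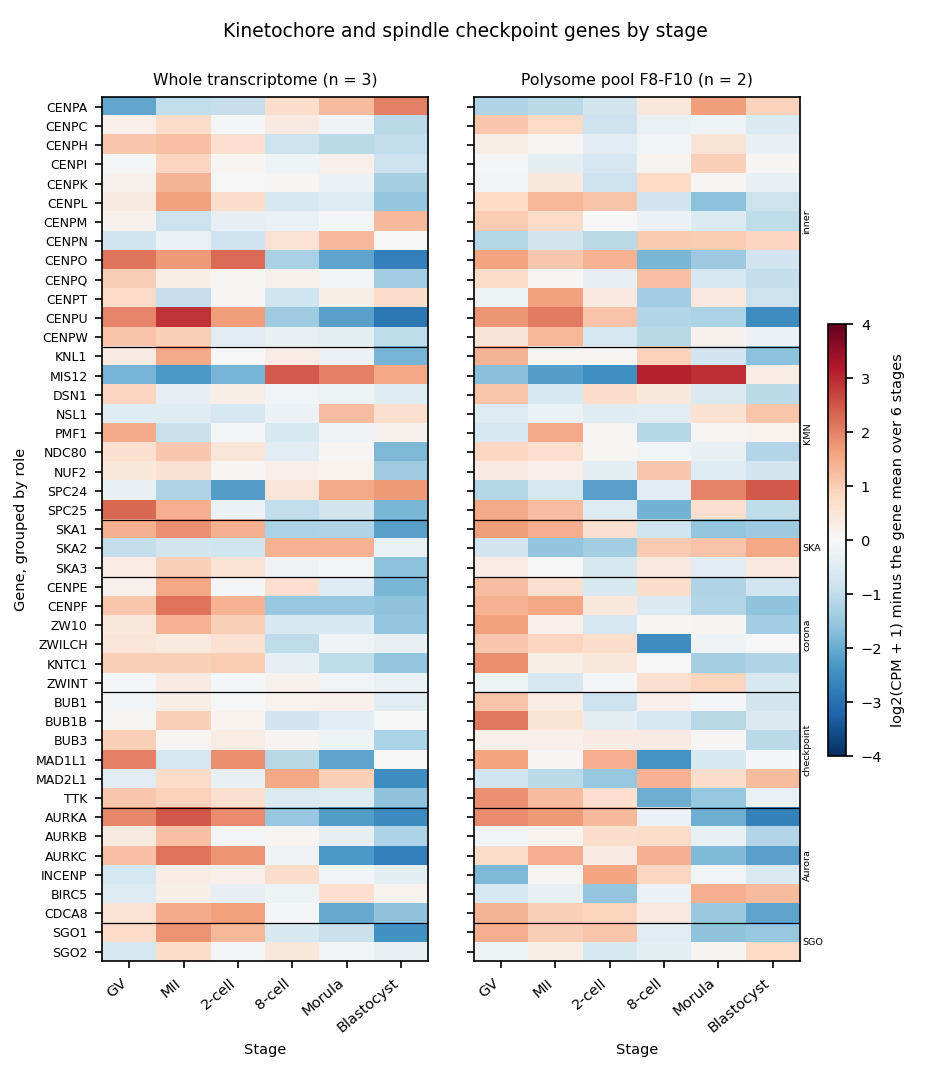
Rows are the 45 genes, grouped by role, and columns the 6 stages; colour is the group mean as log2(CPM + 1) after subtracting the gene's mean over the stages, from 3 transcriptomes (left) or 2 polysome pools (right) per stage. CENPU, CENPF, AURKA and AURKC are high in oocytes and low from the 8-cell stage in the transcriptome, whereas MIS12 rises from the 8-cell stage in both panels.

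Between GV and MII, 8 of 45 genes rose and 3 fell by over 2-fold at an adjusted p below 0.05, against 6.61% of all 14612 tested genes that rose and 10.5% that fell. The 8 were CENPK and CENPL of the inner kinetochore, the KMN scaffold KNL1, the corona proteins CENPE and CENPF, the checkpoint effector MAD2L1 and both shugoshins, SGO1 and SGO2. The median log2 fold change was 0.44 over the 45 genes and 0.00 over all tested genes.

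CENPE, a kinesin motor that carries chromosomes towards the spindle equator, was at 402, 672 and 409.6 CPM in the 3 GV transcriptomes and at 1069, 1104 and 1748 CPM in MII, a log2 fold change of 1.40 ± 0.30 (SE; edgeR quasi-likelihood, adjusted p = 0.00165). MAD2L1, the protein that binds CDC20 in the checkpoint complex, went from 229, 266 and 288 CPM to 526, 444 and 808 CPM (1.18 ± 0.25 on the log2 scale, edgeR adjusted p = 0.00141). Every MII library of both genes lay above every GV library. SGO2, the main protector of centromeric cohesin in meiosis, stood at 116, 172 and 158 CPM in GV and at 363, 355 and 463 CPM in MII, and SGO1 at 526, 679 and 606 against 1073, 1115 and 1511 CPM. KNL1, the platform to which BUB1 and BUB3 dock, moved from 148, 184 and 157 to 286, 365 and 462 CPM. None of these groups overlapped. Lack of overlap between 3 and 3 libraries is given as a description only, as the share of all genes with it was not counted. CENPF, a large corona protein, was at 1360, 1907 and 1419 CPM in GV and 2859, 3039 and 3850 CPM in MII (1.06 ± 0.28, SE). The inner kinetochore genes CENPK, at 113, 162 and 171 against 349.9, 275 and 402 CPM (1.21 ± 0.38), and CENPL, at 79.9, 90.3 and 85 against 188, 181 and 253 CPM (1.29 ± 0.34), were the other risers, again without overlap.

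The 3 falling genes were MAD1L1, PMF1 and CENPM. MAD1L1, which anchors MAD2L1 at unattached kinetochores, dropped from 45.2, 30.4 and 30.1 CPM to 4.92, 5.07 and 4.04 CPM, a log2 change of -2.91 ± 0.48 (SE; edgeR adjusted p = 7.85e-05). PMF1, a subunit of the MIS12 complex that couples inner and outer kinetochore, dropped from 60, 85.2 and 52.4 to 12.8, 13.9 and 9.16 CPM (-2.46 ± 0.31, edgeR adjusted p = 2.19e-06). For both genes every MII library lay below every GV library. CENPM, a small inner kinetochore subunit, was low at both stages, 14.3, 8.82 and 13.1 CPM against 7.79, 4.87 and 3.33 CPM.

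Several well known members did not pass the call. AURKB, the mitotic kinase of the passenger complex, lay at 202, 265 and 212 CPM in GV and 353, 361 and 510.2 CPM in MII, which met the adjusted p (0.0225, edgeR) but not the 2-fold limit. BUB3, a checkpoint adaptor, likewise met the adjusted p (0.000998, edgeR) at a log2 fold change of -0.87 ± 0.18. CENPA, the centromeric histone variant, was at 10.9, 8.92 and 15.7 against 27.2, 26.8 and 25.5 CPM (edgeR adjusted p = 0.0611), and NDC80, the microtubule-binding subunit that names its complex, at 373, 489 and 403 against 444, 516 and 751 CPM with overlapping groups. AURKC, the Aurora kinase of germ cells, was at 442, 549 and 439.5 CPM in GV and 828, 826 and 1093 CPM in MII (0.94 ± 0.33). BIRC5 (survivin) was at 93.3, 107 and 112 against 184, 168 and 169.9 CPM (0.74 ± 0.28), and BUB1B (the checkpoint protein BubR1) at 158, 162 and 168 against 272, 299 and 317 CPM (0.86 ± 0.66). The groups of AURKC, BIRC5, BUB1B, AURKB and CENPA did not overlap, although none of these genes was called. With RLE in place of TMM scaling the median of all genes moved to 0.12 and that of the 45 genes to 0.56, and 12 genes rose and 2 fell. The count of 11 fell to 3 without MII transcriptome C and to 5 without GV transcriptome A or GV transcriptome C, and DESeq2 called 17. The shares of all genes called under these settings are not given here.

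In the polysome pools a single kinetochore gene passed the same limits, PMF1, which had fallen in the transcriptome. Of the 45 genes 1 rose and 0 fell between GV and MII, against 3.03% and 2.33% of all tested genes (edgeR). At an unadjusted p below 0.05 the count was 7 of 45, beside 2712 of all 14612 genes. DESeq2 called 5 of the 45 and the likelihood ratio test of edgeR 4, and the shares of all genes under these settings are not given here. The median log2 fold change of the 45 genes was -0.23, beside 0.00 for all genes. The spread of a gene was estimated over all stages and both kinds of library, not from these stages alone. Pools that differed between gradients elsewhere, such as DSN1 in 8-cell at 0.205 and 77.8 CPM, therefore enter the SE here. DSN1 went from 70.2 and 56.4 CPM in GV to 17.9 and 19.3 CPM in MII and was not called. CENPT, given below, moved upwards without overlap and was not called either.

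PMF1 stood at 71.5 and 69.2 CPM in the 2 GV polysome pools and at 201 and 429.9 CPM in MII, a log2 fold change of 2.16 ± 0.37 (SE; edgeR adjusted p = 0.00102), with the 2 MII pools far apart but both above GV. In MII gradient B a single fraction, F10 with 883 CPM, was well above F8 and F9 at 218 and 225 CPM, while gradient A gave 194, 153 and 161 CPM in F8, F9 and F10. The call was kept without either gradient and under every other setting tried, and the log2 value ranged from 1.52 to 2.59.

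For KNL1, CENPE, MAD2L1 and CDCA8 the transcriptome and the polysomes parted the other way. The difference between the polysome and the transcriptome change was tested as an interaction, which called 2 genes upwards and 4 downwards, against 7.14% and 3.5% of all genes. PMF1 (4.63 ± 0.48 on the log2 scale, SE; edgeR adjusted p = 1.54e-06) and CENPT (3.57 ± 1.09, adjusted p = 0.0349) were the upward pair. KNL1 had -2.53 ± 0.54 (adjusted p = 0.00303), CENPE -2.00 ± 0.48 (adjusted p = 0.00706), MAD2L1 -1.47 ± 0.40 (adjusted p = 0.0165) and CDCA8 -1.33 ± 0.43 (adjusted p = 0.0488).

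KNL1 polysome pools were at 43.4 and 30.4 CPM in GV and 10.6 and 18.5 CPM in MII. CENPE pools were at 81.8 and 68.9 CPM in GV and 53.2 and 46.2 CPM in MII, so both MII pools lay below both GV pools although the transcriptome had risen. The MAD2L1 pools, at 63.4 and 47.2 CPM in GV and 48.7 and 41.8 CPM in MII, overlapped. CDCA8, the passenger subunit borealin, was at 497, 357 and 508 CPM in GV transcriptomes and 776, 866 and 914 CPM in MII, whereas its polysome pools held 1379 and 1596 CPM in GV and 1253 and 968 CPM in MII. CENPT, which carries NDC80 complexes on its long tail, stood at 72.5, 58.5 and 62.3 CPM in the GV and 20, 20 and 18.4 CPM in the MII transcriptomes, and at 67.5 and 95.5 CPM in the GV and 302 and 283 CPM in the MII polysome pools, so the transcriptome values were lower and the polysome values higher in MII without overlap, though neither change alone was called. The monosome fractions of CENPT (F3 to F5, summed per gradient) also rose, from 88.7 and 74.5 CPM in GV to 228 and 376 CPM in MII. Those of PMF1 went from 102 and 67.7 to 135 and 170 CPM, so neither rise was particular to polysomes. PMF1, KNL1 and CENPE kept the interaction call under every setting tried. CENPT and CDCA8 lost it in each of the 10 fits that left out 1 library, and MAD2L1 lost it without GV gradient A, MII gradient B or MII transcriptome C, so that the 6 calls became 3 without GV gradient A or MII transcriptome C.

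**Figure D2:**
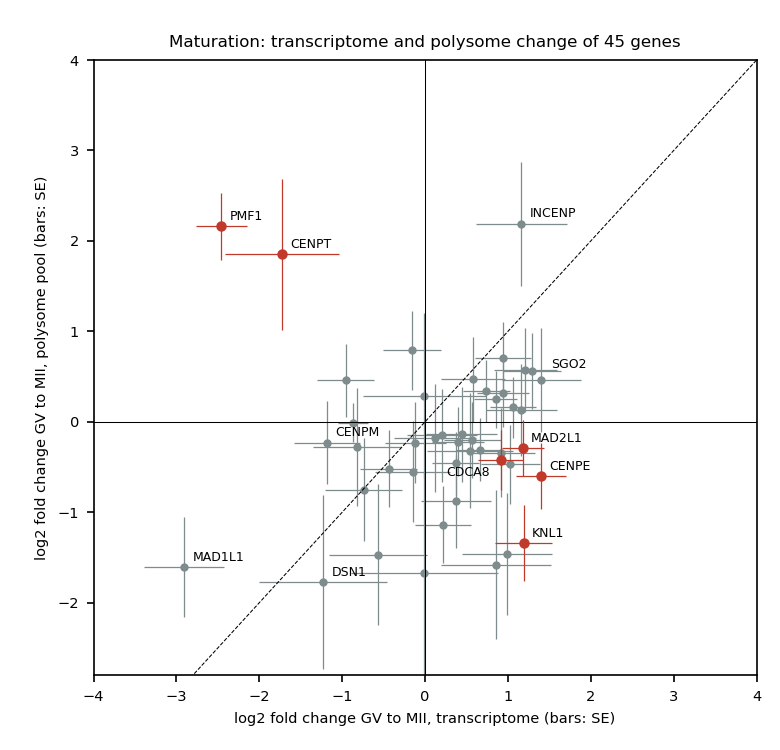
Each point is 1 of 45 genes, with its log2 fold change from GV to MII in the transcriptome (x axis) and in the polysome pool (y axis), and bars give the SE. Red points are the 6 genes with a called interaction, the dashed line marks equal change, and PMF1 and CENPT sit at the upper left while KNL1 and CENPE sit at the lower right.

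INCENP, the scaffold of the passenger complex, was not called in polysomes, with 2.9 and 2.76 CPM in GV and 16.8 and 9.08 CPM in MII (2.19 ± 0.69, edgeR adjusted p = 0.0629). The polysome pools of AURKB were at 648 and 614 CPM in GV and 883 and 615 CPM in MII, and those of AURKC at 697 and 776 CPM in GV and 1746 and 654 CPM in MII, where gradient B lay below GV. BIRC5 pools were at 82.1 and 66.9 CPM in GV and 106 and 82.7 CPM in MII. For CENPA, GV pools held 21.5 and 12 CPM and MII pools 15 and 21.7 CPM, and for NDC80 they held 80.6 and 66.4 and then 49.6 and 83.4 CPM, so that both overlapped. BUB1B was at 111 and 153 CPM in GV and 48.3 and 39.7 CPM in MII, lower in both MII pools, at an adjusted p of 0.32 (edgeR).

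KNL1, CENPE, CENPK and MAD2L1 fell in the transcriptome after fertilization. This comparison and the maturation one share the 3 MII libraries, so for these genes the rise and the fall are not independent of each other. From MII to 2-cell, 1 gene rose and 9 fell in the transcriptome, against 6.0% and 5.96% of all tested genes. The fallers were CENPK, CENPU and CENPW of the inner kinetochore, KNL1, SPC24 and SPC25 of the KMN network, CENPE, MAD2L1 and AURKB. KNL1 changed by -1.54 ± 0.34 and CENPE by -1.63 ± 0.31 on the log2 scale. MAD1L1 was the one that rose, from 4.92, 5.07 and 4.04 to 37.4, 26.1 and 31.7 CPM, next to 45.2, 30.4 and 30.1 CPM in GV. The count of 10 became 5 without 2-cell transcriptome C and 6 without MII transcriptome C.

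In polysomes, 0 genes rose and 6 fell from MII to 2-cell, against 3.37% and 5.14% of all genes: CENPW, SPC24, PMF1, CENPE, BIRC5 and CENPF. PMF1 pools went from 201 and 429.9 to 95.6 and 132 CPM, -1.47 ± 0.36 on the log2 scale. BIRC5, the survivin subunit that brings the passenger complex to centromeres, dropped to 40.6 and 36.5 CPM. The 6 calls became 0 without 2-cell gradient A, 1 without 2-cell gradient B and 2 without MII gradient B, and DESeq2 called 11.

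Between the 2-cell and 8-cell stages, around the activation of the bovine genome, the counts of called genes were the highest of the 5 transitions in both kinds of library, as were the shares of all genes. In the transcriptome 6 genes rose and 14 fell, against 26.6% and 23.5% of all tested genes, and in polysomes 12 rose and 11 fell, against 21.0% and 25.2%. CENPO and CENPU, partners in a subcomplex of the inner kinetochore, fell in both: the transcriptome of CENPO went from 287, 294 and 257 to 19.7, 26.1 and 23.2 CPM and its polysome pools from 97.6 and 134 to 13 and 10.3 CPM. AURKA, the spindle pole kinase, dropped from 6042, 5791 and 6353 to 384, 568 and 738 CPM in the transcriptome, a log2 change of -3.43 ± 0.38, and by less in polysomes, at -1.52 ± 0.43 (a difference that was not tested). CENPF, SKA1, SGO1, CENPL, ZWILCH, TTK and MAD1L1 also fell in both kinds of library.

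MIS12, SPC24, SKA2, MAD2L1 and CENPN rose in both. MIS12, whose complex is the hub between inner and outer kinetochore, was at 5.1, 3.2 and 4.44 CPM in 2-cell and 86.8, 119 and 108 CPM in 8-cell transcriptomes (4.62 ± 0.66). In the 2-cell polysome pools it had 2 and 5 counts, against 76.7 and 25.2 CPM in the 8-cell pools, so the fitted polysome fold change depends on the prior count and is not given. SKA2, of the complex that follows shrinking microtubule ends, went from 20.8, 19.8 and 19.5 to 93.3, 108 and 83.4 CPM, and MAD2L1 from 340.4, 310.5 and 221 to 823, 1408 and 876 CPM. CENPE, CENPK, CENPQ, NUF2, SKA3, BIRC5 and AURKC were called upwards in polysomes and not in the transcriptome, where AURKC fell: its transcriptome went from 681, 650.0 and 809.5 to 156, 226 and 170.5 CPM and its pools from 518 and 586 to 1542 and 794 CPM. The 2 gradients of 8-cell embryos stood apart for many of the genes, such as DSN1 at 0.205 and 77.8 CPM, CENPT at 0.574 and 70.2 and KNTC1, of the RZZ complex, at 0 and 27.2 CPM in gradients A and B. Without either gradient or transcriptome of these stages in turn, between 18 and 32 genes were called in polysomes and between 18 and 20 in the transcriptome.

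Fewer genes were called at the later transitions. From 8-cell to morula the transcriptome gave 1 riser, SPC24, and 4 fallers, AURKC, CDCA8, MAD1L1 and CENPE, against 6.6% and 7.75% of all genes, and the polysomes 7 risers and 9 fallers, against 18.5% and 17.7%. SPC24, which holds the NDC80 complex at the inner kinetochore, went from 90.7 and 72.4 to 581 and 302 CPM in polysomes, and BIRC5 from 75 and 122 to 472 and 159 CPM. With RLE scaling 0 rose and 4 fell in the transcriptome. The transcriptome count of 5 became 2 without 8-cell transcriptome B or Morula transcriptome A, and 3 without 8-cell transcriptome C or Morula transcriptome C, and the polysome count of 16 became 10 without Morula gradient A.

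From morula to blastocyst, 2 genes rose (CENPM and MAD1L1) and 13 fell in the transcriptome, against 10.2% and 11.4% of all genes. MAD2L1 had the lowest log2 value, -3.44 ± 0.28, from 554, 678 and 832 to 60.6, 66.3 and 62.8 CPM, while its polysome pools held 173 and 144 CPM in morulae and 227 and 235 CPM in blastocysts and were not called. KNL1, NDC80, NUF2, SKA2, SKA3, CENPE, SGO1, BUB3 and 4 inner kinetochore genes (CENPK, CENPL, CENPN and CENPQ) were the other fallers. In polysomes 0 rose and 4 fell (MIS12, ZWINT, CENPU and BUB3), against 5.79% and 8.13%. That count became 10 without Morula gradient B and 7 without Morula gradient A.

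At every stage more kinetochore genes were lower than higher in polysomes relative to the transcriptome. At an adjusted p below 0.05 (edgeR), 24 genes were lower and 4 higher in GV, against 17.7% and 22.2% of all tested genes. In MII 32 were lower and 6 higher (26.7% and 30.8% of all genes), in 2-cell 32 and 5 (21.9% and 29.1%), in 8-cell 26 and 6 (31.0% and 28%), in morula 25 and 7 (25.2% and 26.5%) and in blastocyst 21 and 8 (20.1% and 20%), a total of 29 that became 19 without Blastocyst gradient B. The median log2 difference ran from -1.54 in GV over -2.24 in MII and -2.41 in 2-cell to -1.49 in 8-cell, -1.60 in morula and -1.15 in blastocyst, whereas the median of all genes lay between -0.26 and 0.18.

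Genes lower in polysomes at all 6 stages numbered 14 of 45, against 5.78% of all genes: CENPC, CENPI, CENPK, CENPQ and CENPU of the inner kinetochore, KNL1, NDC80, NUF2, SKA1, CENPE, CENPF, BUB3, SGO1 and SGO2. SGO2 was at 232, 263 and 181 CPM in 2-cell transcriptomes and 13.2 and 3.6 CPM in the pools, -4.74 ± 0.66 on the log2 scale, and in 8-cell embryos at 210.5, 388 and 346 against 3.53 and 17.7 CPM. CENPE in MII, at 1069, 1104 and 1748 CPM in transcriptomes and 53.2 and 46.2 CPM in pools, had a log2 difference of -4.72 ± 0.42 (edgeR adjusted p = 1.23e-09), and in morulae, at 249, 364 and 316 against 10.9 and 15.2 CPM, -4.57 ± 0.41. KNL1 in MII gave -4.67 ± 0.47, and in blastocysts it was at 30.9, 46 and 27.2 CPM against 4.83 and 2.51 CPM in pools.

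CENPK in GV oocytes was at 113, 162 and 171 CPM in transcriptomes and 11.7 and 10.1 CPM in pools (-3.77 ± 0.50), and SGO2 at 116, 172 and 158 CPM against 13.8 and 10.3 CPM (-3.62 ± 0.62). CENPC, the inner hub that reaches from centromeric nucleosomes to the MIS12 complex, gave -4.06 ± 0.69 in 8-cell embryos, where its pools held 1.44 and 25 CPM against 167, 261 and 236 CPM. CENPQ in morulae gave -3.94 ± 0.62, with 2.17 and 7.85 CPM in pools and 56.5, 76.1 and 99.2 CPM in transcriptomes. MIS12 was lower in 2-cell embryos, where its pools held 2 and 5 counts, and in blastocysts, with 6.88 and 6.17 against 47.6, 59.5 and 58.4 CPM. In each of these cases all pools lay below all transcriptomes.

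Higher in polysomes than in the transcriptome throughout were CENPM, SPC24 and AURKB, 3 of 45 genes against 9.92% of all genes. In GV the means of F1 and F2, F3 to F5 and F8 to F10 were 696, 258 and 229 CPM for CENPM and 1730, 1030 and 587 CPM for AURKB. The excess of these genes in GV was thus not particular to polysomes. F8 to F10 were highest for SPC24 in GV (14.9, 5.68 and 45.9 CPM) and for CENPM in 2-cell (71.1, 32.4 and 108 CPM). CENPM was at 243 and 253 CPM in the GV pools and 14.3, 8.82 and 13.1 CPM in the GV transcriptomes, a log2 difference of 4.36 ± 0.45 (edgeR adjusted p = 4.93e-08), which was 5.31 ± 0.47 in MII, 3.90 ± 0.44 in 2-cell, 3.60 ± 0.44 in 8-cell, 3.03 ± 0.43 in morula and 1.14 ± 0.42 in blastocyst. Its pools held 139 and 284 CPM in MII, 126 and 119.8 in 2-cell, 133 and 76.4 in 8-cell and 82.5 and 85.3 CPM in morula, and its transcriptomes 6.62, 7.75 and 10.3 CPM in 2-cell, 5.57, 7.98 and 12.3 in 8-cell and 13.2, 9.57 and 8.08 CPM in morula. PMF1 was higher at the 5 stages after GV, and in MII its log2 difference was 4.72 ± 0.35. SPC24 in blastocysts stood at 639 and 615 CPM in pools and 113, 71.1 and 114 CPM in transcriptomes (2.66 ± 0.37), and PMF1 there at 130.5 and 114 against 27.6, 27.4 and 23.4 CPM. MAD1L1 was higher in morulae, with 4.82 and 9.38 CPM in pools against 0.84, 1.52 and 0.862 CPM.

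**Figure D3:**
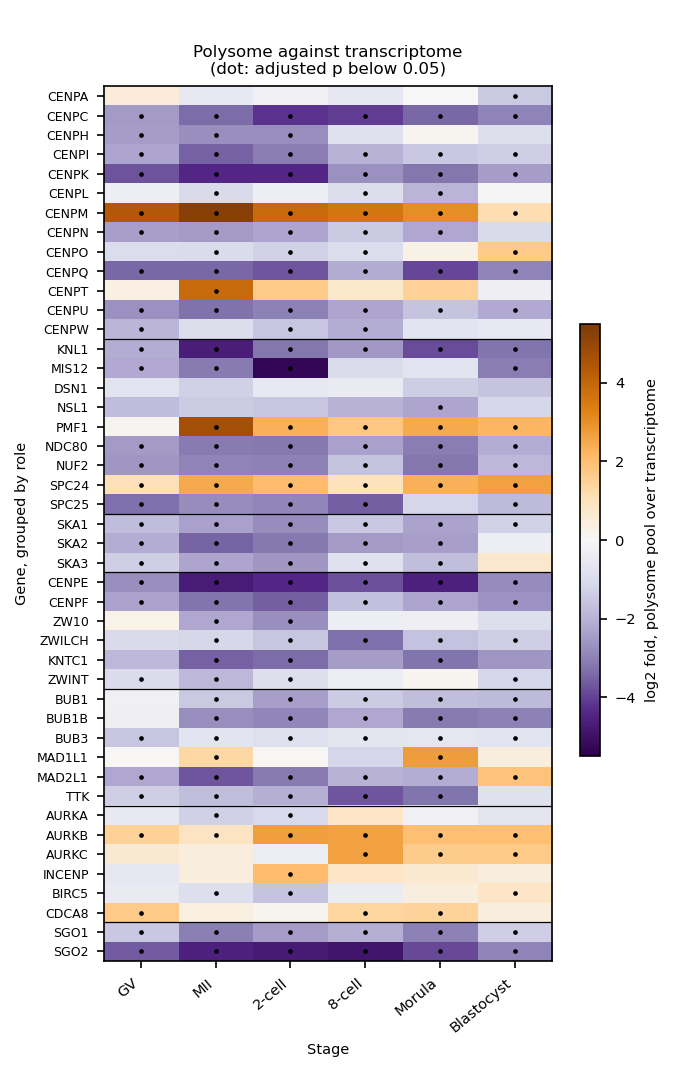
Rows are the 45 genes by role and columns the 6 stages; colour is the log2 fold difference of the polysome pool (n = 2) over the transcriptome (n = 3), and a dot marks an edgeR adjusted p below 0.05. CENPM, SPC24 and AURKB carry a dot on the high side at all 6 stages, and 14 genes carry one on the low side at all 6.

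The low polysome values were shared by the other fractions. In GV oocytes every one of the 20 fraction libraries lay below every transcriptome for 28 of 45 genes, against 24.2% of the genes with a mean of at least 1 CPM, and 2 genes (CENPM and AURKB) lay above throughout, against 20.4%. The same count was 27 of 44 in MII (24.5% of all genes), 28 in 2-cell (22.2%), 14 in 8-cell (16.1%), 17 in morula (14.4%) and 10 in blastocyst (9.26%). In MII, 4 genes lay above throughout (CENPM, CENPT, PMF1 and SPC24), against 14.3% of all genes. Fraction libraries and transcriptomes therefore differed for these low and high genes in all parts of the gradient, and the part of ribosome loading and that of the kind of library in the polysome difference cannot be told apart. For CENPE in MII, for example, the mean was 14.2 CPM in F1 and F2, 6.18 in F3 to F5 and 40 in F8 to F10, against 1200 CPM in the transcriptomes on the same scale.

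Of the 6 Aurora kinases and passenger subunits, 2 were higher and 0 lower in polysomes of GV oocytes, 1 was higher and 2 lower in MII, 2 were higher and 2 lower in 2-cell, and 3 were higher and 0 lower in each of the 8-cell, morula and blastocyst stages, beside the shares of all genes given above (22.2% higher and 17.7% lower in GV, for example). BIRC5 was lower in MII (-0.88 ± 0.33) and 2-cell (-1.61 ± 0.34) and higher in blastocyst (0.78 ± 0.31). AURKB was at 999 and 1197 CPM in the 2-cell pools against 195, 138 and 178 CPM in the transcriptomes (2.69 ± 0.29, edgeR adjusted p = 5.88e-08), and its smallest log2 difference, 0.88 ± 0.28, was in MII. AURKC had no called difference in GV, MII or 2-cell and was higher in polysomes from the 8-cell stage on, where pools held 1542 and 794 CPM and transcriptomes 156, 226 and 170.5 CPM (2.66 ± 0.37). CDCA8 was higher in GV (1.71 ± 0.30), 8-cell (1.41 ± 0.30) and morula (1.44 ± 0.30), and AURKA was lower in MII and 2-cell and not called elsewhere. In 8-cell embryos the means of F1 and F2, F3 to F5 and F8 to F10 were 1780, 4120 and 1200 CPM for AURKC. They were 1970, 3310 and 1180 CPM for AURKB and 809, 1520 and 803 CPM for CDCA8, so the excess there was not particular to polysomes. F8 to F10 were highest for AURKC in blastocysts (6.57, 59 and 88.8 CPM) and CDCA8 in GV (260, 695 and 1390 CPM). AURKB and AURKC are close paralogs and AURKC also overlaps ZNF805 in the RefSeq gene table, so the reads given to each are estimates.

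**Figure D4:**
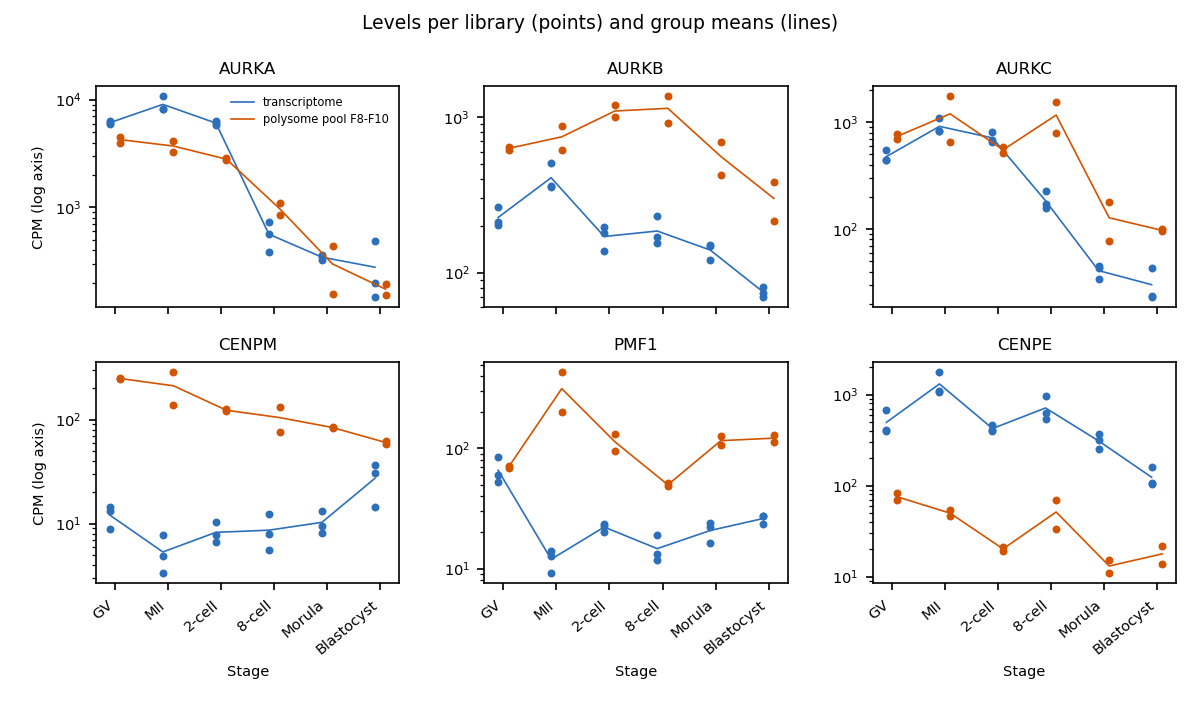
Points are single libraries and lines group means of transcriptomes (blue, n = 3) and polysome pools (orange, n = 2) over the 6 stages, in CPM on a log axis. AURKB and CENPM pools lie above their transcriptomes at every stage and CENPE pools below, while the PMF1 lines lie close together in GV and apart in MII.

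Within the gradient, the levels of 25 of the 45 mRNAs rose towards the heavy fractions in GV oocytes. The level of a gene was ranked against fraction number over F3 to F10 (Spearman's rho, 16 libraries from 2 gradients whose fractions share a lysate), and in GV these 25 rose and 2 genes fell at a permutation p adjusted below 0.05, against 17.7% and 18.4% of all genes. The permutations treated the 16 fractions as independent samples, so this p does not measure the spread between the 2 gradients. The risers came from all roles: 6 of 13 inner kinetochore genes, 6 of 9 in the KMN network, 1 of 3 SKA genes, 5 of 6 corona genes, 3 of 6 checkpoint genes, 2 of 6 passenger genes and both shugoshins. The median rho was 0.64, beside -0.05 for all genes. 

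BUB1B had a rho of 0.94, with 18.8 and 39.3 CPM in F3 and 116 and 235 CPM in F10 of gradients A and B. CENPF went from 11 and 5.64 CPM in F3 to 285 and 297 CPM in F10 (0.92), and KNL1 and SPC24 both had a rho of 0.90. MAD1L1 ran the opposite way (-0.96), from 200.0 and 330.0 CPM in F3 to 11.4 and 17.4 CPM in F10, and INCENP was the other faller (-0.76).

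In MII fewer genes had a trend, 10 rising and 3 falling of 44, against 7.1% and 12.1% of all genes. CENPF kept its slope (0.96), and CENPL (0.86), SGO2 (0.85), MAD2L1 (0.85), AURKC (0.84) and SKA1 (0.82) rose as well. DSN1, of the MIS12 complex, fell (-0.93), with 65.4 and 52.7 CPM in F3 against 7.5 and 2.43 CPM in F10, although it had risen in GV (0.64). BUB3 (-0.92) and CENPO (-0.86) were the other fallers. The counts of 27 in GV and 13 in MII became 15 and 2 without gradient A and 10 and 7 without gradient B.

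**Figure D5:**
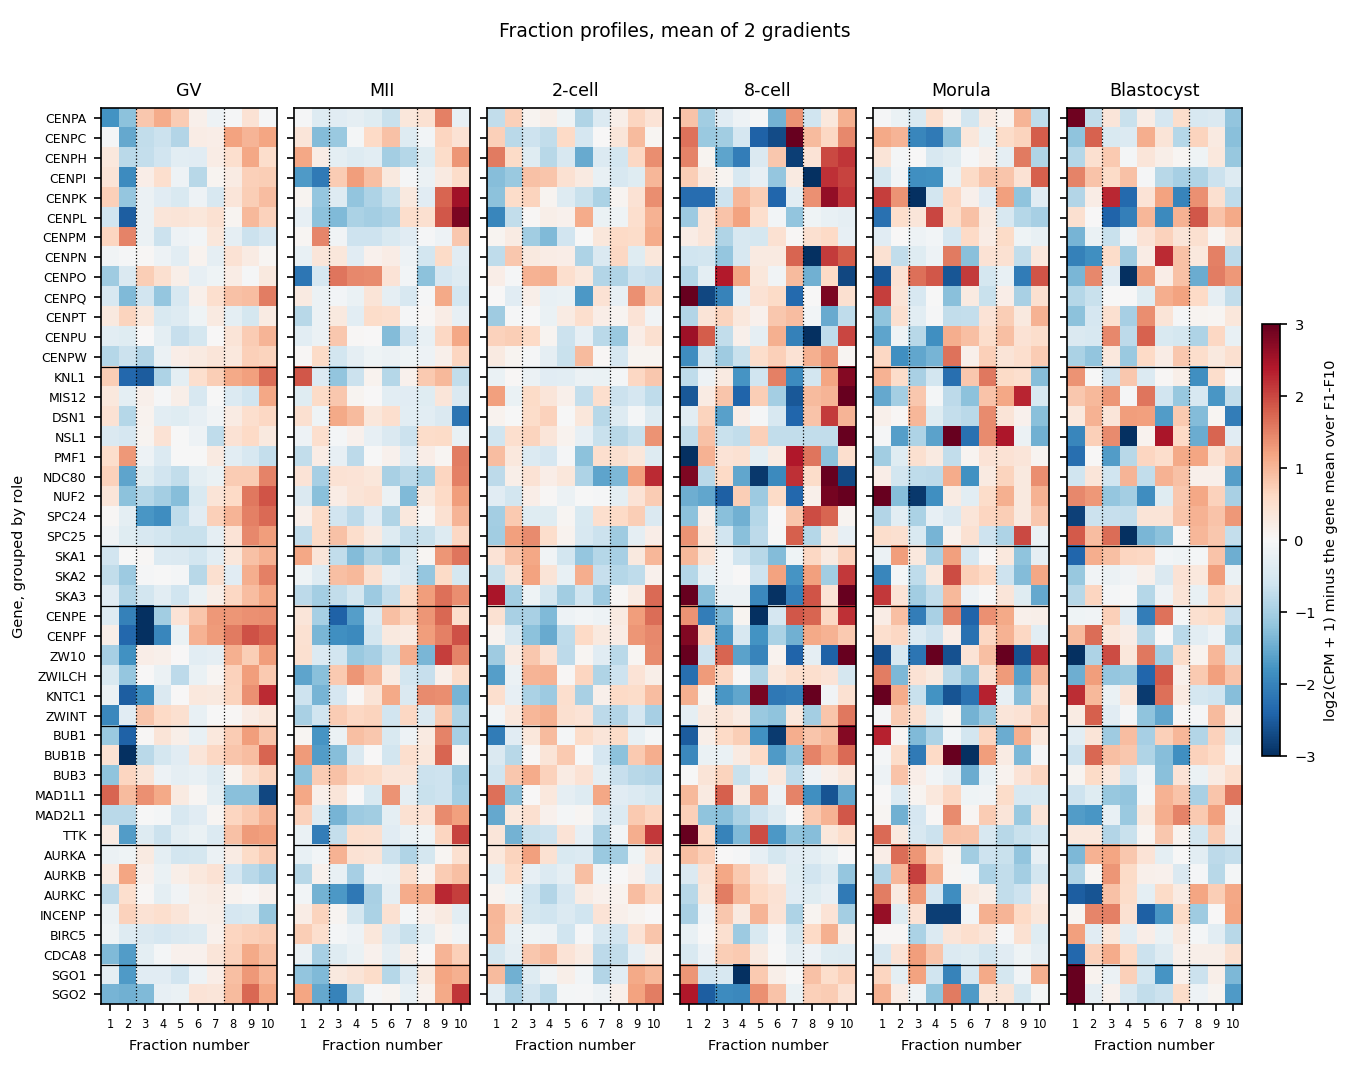
Each panel is a stage, with fractions F1 to F10 on the x axis and the 45 genes on the y axis; colour is log2(CPM + 1), mean of 2 gradients, after subtracting the gene's mean over the fractions, and dotted lines bound F3 to F7. In GV the right side of the panel is above the gene mean for most rows, with MAD1L1 as the opposite case, and from the 8-cell stage on the rows are irregular.

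Trends in embryos were scattered. In 2-cell embryos 4 genes rose and 6 fell, against 10.6% and 10.1% of all genes, led by CENPM (0.91) and BUB3 (-0.91). In 8-cell embryos 3 rose and 3 fell, against 6.0% and 7.99%, and the fallers were all passenger genes: CDCA8 (-0.95), AURKC (-0.93) and AURKB (-0.88), while MAD2L1 (0.91), SPC24 and CENPE rose. Morulae had 0 in either direction by this permutation test, against 0.855% and 0.646% of all genes. At an unadjusted p below 0.05 the morula count was 5 of 45, beside 1633 of 11926 genes. Blastocysts had SPC24 rising (0.92) and AURKA falling (-0.85), against 6.06% and 1.69%. Without gradient B the 2-cell count of 10 and the 8-cell count of 6 became 0, without 8-cell gradient A the latter became 2, and both blastocyst calls were lost without either gradient.

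A direct test of heavy (F8 to F10) against light (F3 to F5) pools, with edgeR over 24 pools, named few genes. In GV, CENPF and SPC24 were higher in heavy pools and 0 were lower, against 0.316% and 0.182% of all genes. CENPF held 43.1 and 23.7 CPM in the 2 light and 273 and 296 CPM in the 2 heavy pools (3.09 ± 0.56, adjusted p = 0.024), and SPC24 7.4 and 4.18 against 30.4 and 60.2 CPM (2.97 ± 0.54, adjusted p = 0.024). Heavy and light pools of a gradient come from 1 lysate, and with the gradient as a replicate block, or without either GV gradient, 0 genes were called in GV.

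In MII, AURKC, CENPF, MAD2L1 and SKA1 were higher in heavy pools and 0 were lower, against 0.262% and 0.175%. AURKC held 87.5 and 102 CPM in light and 1540 and 589.5 CPM in heavy pools, a log2 difference of 3.49 ± 0.51 (edgeR adjusted p = 0.00558), and CENPF 39.2 and 45.3 against 309.9 and 306 CPM. MAD2L1 gave 2.36 ± 0.44 and SKA1 2.07 ± 0.43. With the gradient as a replicate block 1 gene was called, and without either MII gradient 0, while fractions brought to one total before summing gave 5 higher and 1 lower. The change of the heavy to light difference from GV to MII was called for 0 of 45 genes by edgeR, against 0.0% of all genes. At an unadjusted p below 0.05 the count was 10 of 45, beside 928 of all 14873 genes. DESeq2 called 4 of the 45 and the likelihood ratio test 1. AURKC had the highest value, 3.36 ± 0.68 on the log2 scale (SE; edgeR adjusted p = 0.0983). As 0 of all genes were called, this test does not show that a shift between the oocyte stages was absent.

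The 8-cell stage had 5 genes higher in heavy pools and 3 lower, against 4.55% and 4.8%. CENPH, SKA3, SPC24, CENPF and MAD2L1 were the higher ones, with CENPH at 2.51 and 1.31 CPM in light and 32.4 and 5.91 CPM in heavy pools and SKA3 at 10 and 6.73 against 57.4 and 38.3 CPM. MAD1L1, at 13.6 and 26.8 against 1.31 and 1.13 CPM, AURKC, at 5387 and 3053 against 1403 and 706 CPM, and AURKB were lower. AURKC thus lay on the heavy side in MII and on the light side in 8-cell embryos, each without overlap of the pools, and its whole profile peaked in F9 or F10 in MII and in F3 in both 8-cell gradients. Under the replicate block 3 genes were higher and 2 lower, 3 of them among the 8, and without 8-cell gradient A the count was 3.

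In morulae AURKB was lower in heavy pools, 426 and 612 CPM against 3599 and 1218 CPM (-2.21 ± 0.49, edgeR adjusted p = 0.0357), and 0 were higher, against 0.888% and 0.699%. The replicate block called 1 gene there, which was not AURKB, and without Morula gradient B 6 genes were called. In 2-cell and blastocyst stages edgeR called 0 of the 45 genes, with 7 and 6 at an unadjusted p below 0.05, against 0.0% of all genes in both directions in 2-cell and 0.8% higher and 0.632% lower in blastocyst. DESeq2 called 3 and 2 there and the likelihood ratio test 1 and 2, and the block called 1 in blastocysts, as did the fit without gradient A.

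Of 28 further genes of centromere assembly, checkpoint signalling and spindle control that were listed beside the 45, 27 were in the table. From GV to MII 3 rose (ESPL1, FBXO5 and TPX2) and 2 fell (MIS18A and PLK1) in the transcriptome, against 6.61% and 10.5% of all tested genes, and 1 rose (CENPX) and 0 fell in polysomes, against 3.03% and 2.33%. Polysome levels were higher for 6 and lower for 11 of them in GV (22.2% and 17.7% of all genes), 5 and 12 in MII (30.8% and 26.7%), 7 and 12 in 2-cell (29.1% and 21.9%), 9 and 10 in 8-cell (28% and 31.0%), 6 and 11 in morula (26.5% and 25.2%), and 5 and 6 in blastocyst (20% and 20.1%). In GV gradients 8 of 26 rose and 4 fell over F3 to F10, against 17.7% and 18.4%, and in MII 2 rose and 4 fell, against 7.1% and 12.1%.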

How the data were processed

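RNA was measured in 138 bovine libraries: 10 gradient fractions from 2 gradients and 3 whole transcriptomes at each of 6 stages. The authors made the libraries with Smart-seq chemistry, estimated expression with Salmon (version not given in the sources used here) and deposited a table of expected counts per gene symbol, in which 11.7% of values were not whole. UMD3.1 is the build in the submitters' processing notes, whereas the study's methods name another bovine assembly, and which of them the table rests on could not be settled. The values were rounded to whole numbers, no column was left out, and 0 of 78 pairs of replicate libraries held identical values. The kinetochore genes, their roles and the other lists were chosen with earlier results of these data known.

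Counts of F8 to F10 were summed per gradient and fitted with the 18 transcriptomes in 1 edgeR quasi-likelihood model of 12 groups with TMM factors and filterByExpr, with Benjamini-Hochberg adjustment over 14612 genes. The spread of each gene was estimated over all 12 groups, so an SE or p does not measure only the spread of the stages compared. Changes between stages were called at an adjusted p below 0.05 and a fold above 2, and differences between polysomes and transcriptome, and their interaction, at an adjusted p below 0.05. A second model held heavy (F8 to F10) and light (F3 to F5) pools, over 14873 genes. Trends over F3 to F10 used Spearman's rho with 100000 permutations, two-sided, for genes with a mean of at least 1 CPM at that stage. Fraction labels were permuted freely over both gradients, although fractions of a gradient are not independent samples. A fold against pools under the floor of 3 counts is not given. The design text calls the replicates biological duplicates and triplicates, and depth limits low genes in the smallest libraries. Heavy and light pools of 1 gradient share a lysate, so the gradient pairs them, with correlations of their deviations from -0.077 to 0.169. Transcriptome letters share only a letter.

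Genes given with all their values were those called between GV and MII, the 2 largest in each direction at each stage for polysomes against transcriptome and for heavy against light pools, and AURKB, AURKC, CENPA, BIRC5, MAD2L1, BUB1B and NDC80. Genes beyond this rule that the text names were chosen after their values were seen. The procedure was tested on simulated data, with 4-fold changes counted at an adjusted p below 0.05 and a fold above 2. Of these, 84 of 97 passed in a simulated GV to MII transcriptome comparison (13772 genes), 58 of 94 in polysomes (13767 genes) and 63 of 98 for heavy against light pools in MII (14405 genes). Of 2-fold changes, 20 of 96, 6 of 96 and 4 of 95 passed the adjusted p alone. The fold limit used for stage changes was not applied to them and could only lower their counts. The simulated counts had the same fixed spread for all genes and libraries. Real pools could stand far apart, such as DSN1 in 8-cell at 0.205 and 77.8 CPM, so these shares do not hold for such genes. By the RefSeq gene list, CENPO, ZWILCH, AURKC and INCENP overlap a protein-coding gene, so reads could be split between them. The alternatives were DESeq2, RLE factors, no filter on low counts, the likelihood ratio test, fractions scaled to one total, CPM without TMM factors, a higher minimum level, the replicate block, and leaving out each library. Python 3.11.15, numpy 2.4.6, pandas 2.3.3, scipy 1.17.1, matplotlib 3.10.9, R 4.3.3, edgeR 4.0.16, limma 3.58.1 and DESeq2 1.42.0 were used.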

Additional observations from a re-analysis of the deposited data

Results flagged for a closer look

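For 6 genes the change from GV to MII differed between the polysome pools and the transcriptomes by the interaction test (edgeR quasi-likelihood, adjusted p below 0.05). On the log2 scale the polysome change minus the transcriptome change was 4.63 for PMF1 and 3.57 for CENPT, both subunits that link the inner kinetochore to the microtubule-binding layer. It was -2.53 for the scaffold KNL1, -2.00 for the motor CENPE, -1.47 for the checkpoint protein MAD2L1 and -1.33 for the passenger subunit CDCA8. In MII every fraction of PMF1 and CENPT, not only the polysomes, lay above every transcriptome. The transcriptomes of KNL1, CENPE and MAD2L1 rose from GV to MII while the change of their polysome pools was not called, and the cause of these differences was not tested. CENPT and CDCA8 lost the call in each of the 10 fits that left out 1 library, MAD2L1 in 3 of them, and the count of 6 became 3 without GV gradient A or MII transcriptome C.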

How the results depend on the processing

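Counts of called genes were recomputed under each alternative, and the causes of the differences were not tested. The shares of all genes called under an alternative, or with a library left out, are not given here or above. Such counts therefore show how the calls depend on the setting, and are not set against all genes. RLE factors, no filter on low counts, fractions scaled to one total and a higher minimum level moved no count of called genes by over 1.5 times. DESeq2 called 17 genes from GV to MII in the transcriptome, 5 in polysomes, 10 in the interaction, 11 in polysomes from MII to 2-cell and, for heavy against light pools, 7 in MII, 3 in 2-cell, 16 in 8-cell, 6 in morula, 2 in blastocyst and 4 for MII minus GV. The likelihood ratio test called 4 in polysomes from GV to MII and 1 in 2-cell, 4 in morula, 2 in blastocyst and 1 for MII minus GV between heavy and light pools. Scaling by CPM without TMM factors gave 1 trend in morulae and median levels of 79.2 CPM in GV polysomes, 162 and 41.5 CPM in MII transcriptomes and polysomes, 165 and 35.3 in 2-cell, 111 and 22.2 in morula, and 19.5 CPM in blastocyst polysomes.

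RLE factors moved the median of all genes for polysomes against transcriptomes to 0.01 in 2-cell, -0.50 in 8-cell, -0.11 in morula and -0.23 in blastocyst, with medians of the 45 genes at -2.59, -1.70, -1.78 and -1.30. The gradient as a replicate block called 0 genes in GV, 1 in MII, 5 in 8-cell and 1 in blastocyst between heavy and light pools. A replicate block by letter, where letters mark no shared sample, gave 9, 9, 20, 4 and 14 calls in the 5 transcriptome changes, 1, 6, 23, 16 and 4 in polysomes, and 5 in the interaction, none over 1.5 times from the values without it.

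Leaving out each library in turn gave 3 to 9 calls from GV to MII in the transcriptome, 5 to 9 from MII to 2-cell, 18 to 20, 2 to 4 and 10 to 15 at the later changes, and in polysomes 1 to 1, 0 to 4, 18 to 32, 10 to 23 and 3 to 10. Polysomes against transcriptomes gave 23 to 26, 29 to 36, 32 to 37, 28 to 33, 30 to 32 and 19 to 28 from GV to blastocyst, and the interaction 3 to 5. Trends gave 10 to 15, 2 to 7, 0 to 7, 0 to 2, 0 to 0 and 0 to 0, heavy against light pools 0 to 0, 0 to 0, 0 to 0, 3 to 9, 1 to 6 and 0 to 1, and MII minus GV 0 to 0. Among uncalled polysome changes from GV to MII, AURKB became -0.06, AURKC -0.19 and NDC80 0.16 without MII gradient A, against 0.49, 1.25 and -0.56 without MII gradient B, and CENPA became -0.24 without GV gradient B and -0.16 without MII gradient B, against 0.61 without GV gradient A. For single genes, 341 of the other recomputed values kept their side of the threshold under settings that kept all libraries, 21 were no longer called and 5 became called. With 1 library left out, 258 kept it, 69 were no longer called and 5 reversed.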
